A study of Homo sapiens with 6 samples.

Results

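The genes described here encode the classical molecular chaperones of human cells: the heat shock proteins (HSP), the DNAJ cochaperones and the subunits of the chaperonins. They were taken as every protein-coding row of the count table whose symbol begins with HSPA, HSPB, HSP90, HSPD, HSPE or HSPH, with DNAJA, DNAJB or DNAJC, or with CCT, each followed by a number, together with TCP1. HSPBP1, a nucleotide exchange factor of HSP70, was left out of the members and kept among their partners. The rule used names alone and found 83 genes among 30327 rows of the table, of which 16869 were protein-coding, and 75 of the 83 held enough reads to be tested among 15801 tested genes. The rule also took 4 symbols that are not chaperones by name alone, namely HSPBAP1 and the readthrough genes HSPB2-C11orf52, HSPE1-MOB4 and DNAJC25-GNG10, which were kept apart from the classes. HSPB11 is no chaperone either and was counted with the small HSP genes by its symbol.

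SK-BR-3, a long-established line of breast cancer cells that overexpress the receptor HER2 (ERBB2), was sequenced in 6 RNA libraries to find genes that respond to the adaptor protein GRB2. Of these, 3 libraries came from cells given a control siRNA without a target (si_NC) and 3 from cells that received siRNA to GRB2 (si_GRB2). These groups are named in the descriptions of the libraries, whereas the titles, the genotype labels and the design text of the treated libraries speak of GRB2 overexpression. The treated libraries are therefore called the libraries labelled si_GRB2, or si_GRB2 for short. All 6 libraries are of the same line, the labels give neither the siRNA nor the transfection time of the sequenced cells, and no label says whether replicates were separate cultures, so that p-values measure the spread between these libraries.

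GRB2 had 124, 129.5 and 126 CPM (CPM are read counts scaled to libraries of equal size with edgeR's TMM factors) in replicates 1, 2 and 3 of si_NC and 27.8, 28.1 and 29.6 CPM in those of si_GRB2. The means were 126 ± 2.89 and 28.5 ± 0.957 CPM (SD, n = 3 each) and the log2 fold change −2.15 (standard error, SE, 0.040, adjusted p = 3.87e-15 in the edgeR fit). All 3 libraries labelled si_GRB2 lay far below the si_NC libraries, the direction that the descriptions name and the titles do not. Each library held 24810378 to 28532480 reads counted on genes. The share of reads on mitochondrially encoded genes was 8.66% to 9.02% in si_NC and 7.59% to 7.80% in si_GRB2, without overlap. Among 7 markers listed for the line, ERBB2, KRT8, KRT18, KRT19 and EPCAM were abundant, GATA3 stood at 3.50 and 4.27 CPM in the group means, and CDH1, an epithelial adhesion gene, was near 0 at 0.0606 and 0.0518 CPM. Of the 7, ERBB2 was higher in si_GRB2 while KRT8, KRT18, KRT19 and EPCAM were lower. The summed markers of other cell types were low, at 1.21 to 1.65 and 0.869 to 1.15 CPM for leukocytes, 4.06 to 5.85 and 4.49 to 5.21 CPM for fibroblasts and 0.942 to 1.75 and 0.91 to 1.22 CPM for endothelium. The basal keratins KRT5 and KRT14 summed to 16.9 to 17.7 CPM in si_NC and 8.31 to 9.03 CPM in si_GRB2, with KRT5 lower. The part of these shifts in the values below was not tested, and in bulk RNA fewer cells of a type and less RNA per cell cannot be told apart.

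Molecular chaperones bind unfolded stretches of protein and let them go in cycles driven by ATP. HSP70 proteins do so with a DNAJ protein, whose J domain starts ATP hydrolysis, and with nucleotide exchange factors such as the HSP110 proteins that release the client, after which HSP90 or a chaperonin ring may take it on. Heat shock factor 1 raises the inducible cytosolic members under proteotoxic stress, ATF6 and XBP1 raise those of the endoplasmic reticulum (ER), and the receptor HER2 is a well-known client of HSP90.

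The sequence motifs of these responses were looked for in the promoters, because they group the genes by the regulator that may read them. RefSeq promoter windows on GRCh38.p14, from 250 bases before to 50 bases after each start, were at hand for 73 of the 83 members, and 10 had none. The heat shock element was searched as 3 units, GAANNTTCNNGAA, and the ER stress element as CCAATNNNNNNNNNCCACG, each on both strands. The ER stress element was present in 0.0769% of 35116 windows and in 2 members, HSPA5 and HSP90B1. The 3 stretches that hold it lie upstream of the start, and the motif is in capitals:
HSPA5, chr9:125241371-125241429, minus strand: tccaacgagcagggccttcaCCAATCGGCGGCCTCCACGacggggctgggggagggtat
HSP90B1, chr12:103930196-103930254, plus strand: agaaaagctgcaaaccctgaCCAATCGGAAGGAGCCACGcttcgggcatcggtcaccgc
HSP90B1, chr12:103930301-103930359, plus strand, motif on the opposite strand: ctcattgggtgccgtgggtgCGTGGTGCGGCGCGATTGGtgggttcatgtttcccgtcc

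The 3-unit heat shock element was present in 0.49% of windows and in 7 of the 73 members, or 9.59%: HSP90AA1, HSP90AB1, HSPA8, DNAJB6, HSPA6, HSPD1 and DNAJA1. In DNAJA1 it reached past the start. HSPA6 held a full element upstream of the start and is not shown. In HSPD1 a further match on the opposite strand, 245 to 233 bases before the start, overlaps the one in capitals. The stretches of 5 of these genes are shown with the element in capitals, namely the 4 members that rose and HSPD1, which did not:
HSP90AA1, chr14:102087100-102087152, minus strand, motif on the opposite strand: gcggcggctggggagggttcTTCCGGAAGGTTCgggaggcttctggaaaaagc
HSP90AB1, chr6:44247758-44247810, plus strand, motif on the opposite strand: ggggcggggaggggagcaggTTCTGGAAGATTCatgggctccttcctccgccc
HSP90AB1, chr6:44247811-44247863, plus strand, motif on the opposite strand: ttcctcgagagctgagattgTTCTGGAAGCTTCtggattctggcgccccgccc
HSPA8, chr11:123062334-123062386, minus strand: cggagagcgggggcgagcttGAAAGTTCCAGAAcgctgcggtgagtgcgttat
HSPA8, chr11:123062159-123062211, minus strand, motif on the opposite strand: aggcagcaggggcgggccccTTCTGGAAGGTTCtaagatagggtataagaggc
DNAJB6, chr7:157336853-157336905, plus strand: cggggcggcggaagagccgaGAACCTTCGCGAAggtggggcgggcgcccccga
HSPD1, chr2:197500048-197500090, minus strand: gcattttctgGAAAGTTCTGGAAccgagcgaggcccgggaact

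A shorter form of 2 units, GAANNTTC, which is part of the 3-unit form and reads the same on both strands, was present in 6.77% of windows and in 19 members, or 26.0%. HSPA1A, HSPA1B and DNAJB1, classical heat-inducible genes, held this form and not the 3-unit form. DNAJB1 held further matches, 47 to 40 bases before the start and reaching past the start, that are not shown. A stretch of each gene is shown for comparison:
HSPA1A, chr6:31815417-31815464, plus strand: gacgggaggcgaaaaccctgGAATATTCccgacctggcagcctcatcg
HSPA1B, chr6:31827613-31827660, plus strand: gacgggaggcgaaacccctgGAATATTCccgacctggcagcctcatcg
DNAJB1, chr19:14518447-14518494, minus strand: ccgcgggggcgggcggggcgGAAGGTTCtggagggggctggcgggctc
A match is a description of letters and not of binding, and a window without one says only that these letters are not in it.

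In the comparison of si_GRB2 with si_NC by edgeR's quasi-likelihood test, 20 of the 75 tested members rose and 12 fell at an adjusted p under 0.05, while 43 did neither. This was 26.7% higher and 16.0% lower, beside 15.2% and 15.5% of all 15801 tested genes and 17.9% and 18.0% of the 12779 protein-coding ones, so that the share of members that fell lay near the background. The changes were small: log2 fold changes lay between −0.93 and 0.55, their median was 0.036, beside 0.0019 over all tested genes, and 20 of the 32 changed members moved by less than 1.2-fold. With the fold limit of the study's methods, 1.5-fold or its inverse, and an adjusted p under 0.01, 0 members were higher and 2 were lower, DNAJC13 and DNAJC22. In the background 0.829% of tested genes passed that limit upward and 1.69% downward. The 3 si_GRB2 values lay above all 3 si_NC values for 22 tested members and below them for 14, beside 21.1% and 21.2% of all tested genes. All 83 members together took 1.52% to 1.56% of counted reads in si_NC and 1.63% to 1.66% in si_GRB2, without TMM factors. With TMM factors they summed to 15743 ± 247 CPM in si_NC and 16201 ± 157 CPM in si_GRB2 (SD, n = 3 each). The ratio of these means was 1.03. With library totals in place of TMM factors, 28 members were higher and 8 were lower. Of all tested genes 21.8% were then higher and 11.0% lower, and their median log2 fold change moved to 0.05.

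**Figure D1:**
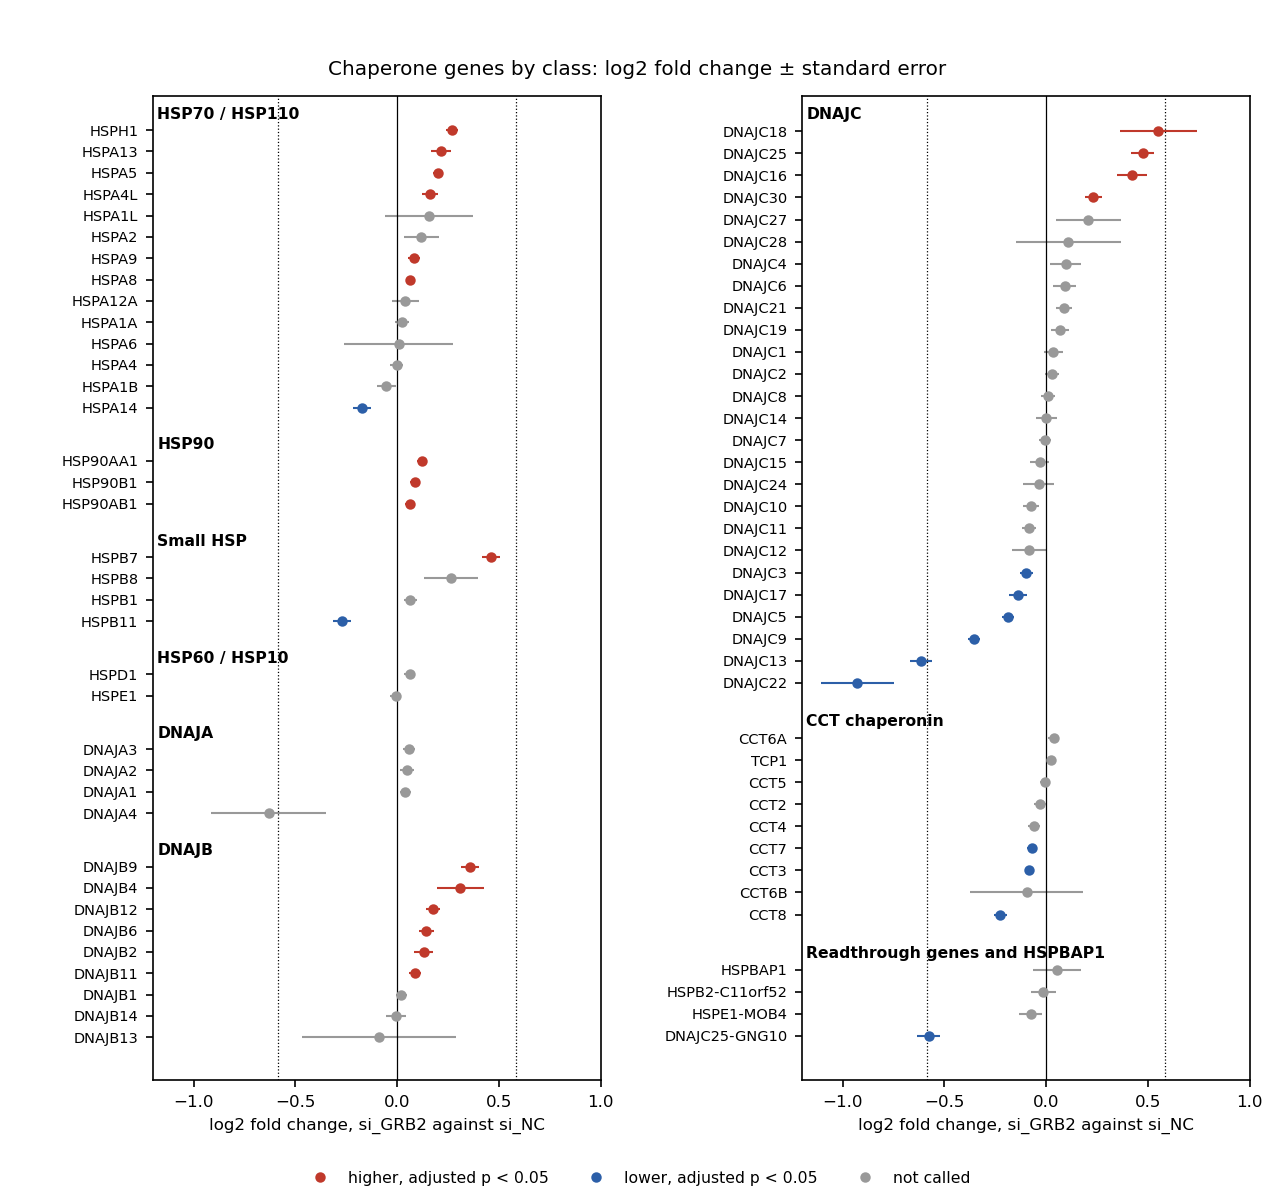
Log2 fold change (horizontal axis) of the 75 tested members, grouped by class, with the standard error of edgeR's fit as bars; positive values are higher in si_GRB2, and dotted lines mark a 1.5-fold change. The HSP90 and DNAJB points lie mostly to the right of 0, the CCT points near 0 or to the left of it, and DNAJC13 and DNAJC22 lie beyond the left dotted line, as does DNAJA4, which did not pass the test.

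Of 14 tested HSP70 and HSP110 members, the ATP-driven core of the system, 6 rose (42.9%), 1 fell (7.14%) and 7 did neither. Of all tested genes 15.2% rose and 15.5% fell, and the class had a median log2 fold change of 0.07. HSPA5 encodes BiP, the HSP70 protein of the ER lumen, and lies on the minus strand at chr9:125234853-125241382 of GRCh38. HSPA5 had 623, 627 and 601 CPM in si_NC and 693, 719 and 715 CPM in si_GRB2. All 3 si_GRB2 values exceeded the highest si_NC value. HSPA5 averaged 617 ± 14.4 and 709 ± 14.3 CPM (SD, n = 3 each), a log2 fold change of 0.20 (SE 0.026, adjusted p = 1.98e-05). HSPH1, an HSP110 nucleotide exchange factor at chr13:31134973-31162388 on the minus strand, showed the largest rise of the class. HSPH1 had 152, 151 and 147 CPM in si_NC and 176, 182 and 184 CPM in si_GRB2. From 150.1 ± 2.49 to 181 ± 4.17 CPM (SD, n = 3 each), HSPH1 had a log2 fold change of 0.27 (SE 0.030, adjusted p = 4.39e-06). The groups were again apart by more than their own spread.

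HSPA13 encodes an HSP70-like ATPase of the ER. HSPA13 had 25.7, 24.1 and 24.6 CPM in si_NC and 28.2, 28.6 and 29.6 CPM in si_GRB2. The HSPA13 means of 24.8 ± 0.835 and 28.8 ± 0.733 CPM (SD, n = 3 each) gave a log2 fold change of 0.21 (SE 0.050, adjusted p = 0.00341). HSPA4L, an HSP110 relative of HSPH1 chosen for naming after its values were seen, rose from 54.7 ± 0.705 CPM in si_NC to 61.2 ± 2.21 CPM in si_GRB2 (SD, n = 3 each), with log2 fold change 0.16 (SE 0.040, adjusted p = 0.00536). The 2 genes of the class with the most reads, HSPA8 and HSPA9, rose by 4.48% and 5.94%. HSPA8, the constitutive cytosolic HSC70, had 1873, 1909 and 1827 CPM in si_NC and 1941, 1958 and 1962 CPM in si_GRB2. HSPA8 averaged 1869.8 ± 41.1 and 1954 ± 11.03 CPM (SD, n = 3 each), a log2 fold change of 0.063 (SE 0.021, adjusted p = 0.0342). HSPA9, the mitochondrial mortalin, had 774, 797 and 751 CPM in si_NC and 793, 835 and 831 CPM in si_GRB2. From 774 ± 22.97 to 819.7 ± 23.5 CPM (SD, n = 3 each), HSPA9 had a log2 fold change of 0.083 (SE 0.028, adjusted p = 0.031). The HSPA9 groups overlapped, since si_GRB2 replicate 1 lay below si_NC replicate 2. The HSPA8 call was lost when si_NC replicate 1 or 3 or si_GRB2 replicate 2 or 3 was left out (adjusted p 0.0888 to 0.285 in edgeR). The HSPA9 call was lost when si_NC replicate 1 or 3 or si_GRB2 replicate 2 or 3 was left out (adjusted p 0.091 to 0.195 in edgeR).

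The stress-inducible HSP70 genes did not pass the test. HSPA1A and HSPA1B encode nearly the same protein and share most of their sequence, so that uniquely mapped reads can be split between them unevenly, and HSPA1B further overlaps a long noncoding RNA on the same strand whose row held reads equal to 125% of those of HSPA1B and had a log2 fold change of −0.36. HSPA1A had 101, 98.2 and 96.8 CPM in si_NC and 99.2, 97.6 and 104 CPM in si_GRB2. HSPA1B had 66.5, 71.5 and 66.1 CPM in si_NC and 63.4, 63.3 and 70.001 CPM in si_GRB2. The values of the groups overlapped for both genes, with log2 fold changes of 0.025 (SE 0.035, adjusted p = 0.66), and of −0.052 (SE 0.046, adjusted p = 0.449). Summed over the pair, the level was 167 ± 3.38 CPM in si_NC against 166 ± 7.03 CPM in si_GRB2 (SD, n = 3 each). HSPA6, which is silent in most unstressed cells, stayed under 1 CPM in both group means (0.9604 ± 0.277 CPM in si_NC and 0.963 ± 0.0218 CPM in si_GRB2 (SD, n = 3 each)). HSPA4, an HSP110 protein, had a log2 fold change of −0.0020 (SE 0.031, adjusted p = 0.973).

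HSPA14, which works with DNAJC2 on the ribosome, was the member of the class that fell. HSPA14 had 38.05, 38.5 and 36.6 CPM in si_NC and 33.7, 33.5 and 32.99 CPM in si_GRB2. The si_GRB2 values all lay below the lowest si_NC value. The HSPA14 means of 37.7 ± 1.02 and 33.4 ± 0.389 CPM (SD, n = 3 each) gave a log2 fold change of −0.17 (SE 0.044, adjusted p = 0.00603). MSANTD7 overlaps HSPA14 on the same strand with reads equal to 83.3% of those of HSPA14 and had a log2 fold change of −0.020, so that a shift of reads between them cannot be told apart from a change of HSPA14. The remaining tested members, HSPA1L, HSPA2 and HSPA12A, had log2 fold changes of 0.16, 0.12 and 0.041 and did not pass. In limma on FPKM the calls of HSPA14, HSPA4L, HSPA8 and HSPA9 were lost.

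All 3 HSP90 members, which encode the late-acting chaperone of kinases and receptors in the cytosol and the ER, rose slightly. Of all tested genes 15.2% rose, and the median log2 fold change of the 3 was 0.086. TRAP1, the mitochondrial HSP90 paralogue, has a symbol outside the naming rule and fell, with log2 fold change −0.10 (SE 0.031, adjusted p = 0.0215). HSP90AA1, the inducible cytosolic form, had 1439, 1435 and 1393 CPM in si_NC and 1501, 1559 and 1582 CPM in si_GRB2. Its groups did not overlap. HSP90AA1 averaged 1422 ± 25.5 and 1548 ± 42.02 CPM (SD, n = 3 each), a log2 fold change of 0.12 (SE 0.024, adjusted p = 0.00105). HSP90AB1 is the constitutive cytosolic form and shifted by less. HSP90AB1 had 1209, 1223 and 1191 CPM in si_NC and 1249, 1269 and 1263 CPM in si_GRB2. From 1208 ± 15.8 to 1260.2 ± 10.002 CPM (SD, n = 3 each), HSP90AB1 had a log2 fold change of 0.061 (SE 0.021, adjusted p = 0.0389). HSP90B1 encodes the ER form, GRP94, and also had groups that did not overlap. HSP90B1 had 725, 745 and 715 CPM in si_NC and 761, 784 and 775 CPM in si_GRB2. The HSP90B1 means of 728 ± 15.6 and 773 ± 11.5 CPM (SD, n = 3 each) gave a log2 fold change of 0.086 (SE 0.024, adjusted p = 0.0133). The cytosolic pair summed to 2630 ± 40.0 CPM in si_NC and 2810 ± 50.7 CPM in si_GRB2 (SD, n = 3 each), and HSP90AA1 made up 54.1% ± 0.231 and 55.1% ± 0.519 of that sum. The HSP90AB1 call was lost when si_NC replicate 1, 2 or 3 or si_GRB2 replicate 2 or 3 was left out (adjusted p 0.0671 to 0.238 in edgeR). The HSP90B1 call was lost when si_NC replicate 1 or 3 or si_GRB2 replicate 2 was left out (adjusted p 0.0655 to 0.0989 in edgeR). Both calls were also lost in limma.

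**Figure D2:**
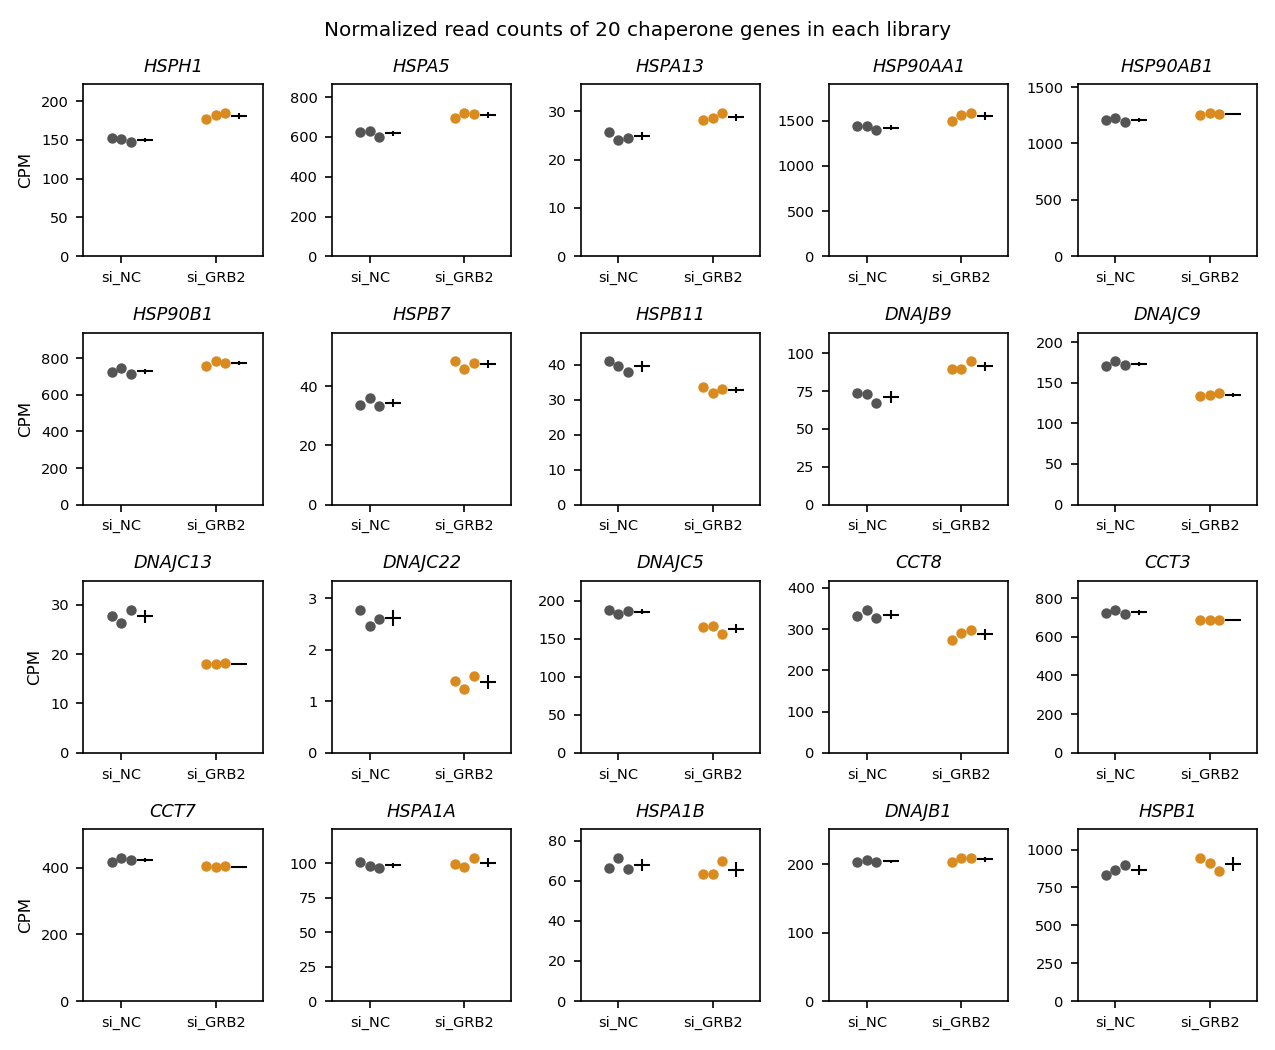
Normalized read counts (CPM, vertical axes from 0) of 20 members in each of the 3 si_NC (grey) and 3 si_GRB2 (orange) libraries, with the group mean and SD in black beside the points. HSPB7, DNAJB9, DNAJC9, DNAJC13 and DNAJC22 show the widest gaps, the HSP90 genes narrow gaps at high levels, and HSPA1A, HSPA1B, DNAJB1 and HSPB1 show groups that overlap.

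Small heat shock proteins hold unfolded clients without ATP. Of 8 genes, 4 were tested, of which 1 rose, 1 fell (HSPB11, no chaperone) and 2 did neither. This was 25% each way, beside 15.2% and 15.5% of all tested genes. HSPB7, best known from heart muscle, lies on the minus strand at chr1:16014028-16019594. HSPB7 had 33.8, 36.02 and 33.5 CPM in si_NC and 48.4, 45.8 and 47.997 CPM in si_GRB2. Its lowest si_GRB2 value was well above its highest si_NC value. HSPB7 averaged 34.4 ± 1.37 and 47.4 ± 1.39 CPM (SD, n = 3 each), a log2 fold change of 0.46 (SE 0.045, adjusted p = 1.02e-06). HSPB11, which in spite of its symbol is a subunit of the intraflagellar transport complex, had 41.004, 39.6 and 38.1 CPM in si_NC and 33.6, 31.9 and 32.99 CPM in si_GRB2. The si_GRB2 values lay below all si_NC values. From 39.6 ± 1.47 to 32.8 ± 0.8703 CPM (SD, n = 3 each), HSPB11 had a log2 fold change of −0.27 (SE 0.046, adjusted p = 2.84e-04). HSPB1 (HSP27) was the member with the highest level per length, at 445 FPKM on average, and had 832, 866 and 898 CPM in si_NC and 945, 914 and 857 CPM in si_GRB2. The HSPB1 groups overlapped, and its log2 fold change was 0.066 (SE 0.034, adjusted p = 0.164). HSPB8, the partner of BAG3 in selective autophagy, had 4.997 ± 0.211 CPM in si_NC and 5.997 ± 0.974 CPM in si_GRB2 (SD, n = 3 each), with log2 fold change 0.26 (SE 0.13, adjusted p = 0.154).

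The mitochondrial chaperonin pair, HSPD1 (HSP60) and its lid HSPE1 (HSP10), shares a promoter region, and neither gene passed the test. HSPD1 had 681, 700.5 and 654 CPM in si_NC and 694, 715 and 716 CPM in si_GRB2. The HSPD1 means of 679 ± 23.1 and 709 ± 12.5 CPM (SD, n = 3 each) gave a log2 fold change of 0.063 (SE 0.027, adjusted p = 0.0974). Of its 3 si_GRB2 values, 2 exceeded every si_NC value. HSPE1 had 314, 318 and 313 CPM in si_NC and 309.8, 306 and 324 CPM in si_GRB2. HSPE1 averaged 315 ± 2.87 and 313 ± 9.24 CPM (SD, n = 3 each), a log2 fold change of −0.0074 (SE 0.028, adjusted p = 0.883). The HSPE1 values of si_NC lay within the range of si_GRB2. Rows of HSPD1 pseudogenes held reads equal to 1.66% of those of HSPD1, the highest such share among the members.

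The CCT complex, the cytosolic chaperonin that folds actin and tubulin, is built of 8 different subunits, here CCT2 to CCT5, CCT6A, CCT7, CCT8 and TCP1, whose mean levels lay between 62.6 and 149 FPKM. CCT6B, a testis form of CCT6A, stood at 0.147 FPKM. Of the 9 genes, 0 rose at an adjusted p under 0.05, 3 fell (33.3%) and 6 did neither. Of all tested genes 15.2% rose and 15.5% fell, and the class had a median log2 fold change of −0.058. CCT8, the theta subunit on the minus strand at chr21:29055805-29073797, fell the most. CCT8 had 332, 347 and 327 CPM in si_NC and 273, 290.2 and 298 CPM in si_GRB2. The highest si_GRB2 value was below the lowest si_NC value. From 335 ± 10.5 to 287 ± 12.9 CPM (SD, n = 3 each), CCT8 had a log2 fold change of −0.22 (SE 0.034, adjusted p = 9.52e-05). CCT3 encodes the gamma subunit and was the most abundant of the ring. CCT3 had 724, 741 and 716 CPM in si_NC and 686, 688 and 686 CPM in si_GRB2. The CCT3 means of 727 ± 12.4 and 686 ± 1.001 CPM (SD, n = 3 each) gave a log2 fold change of −0.083 (SE 0.023, adjusted p = 0.0121). CCT7, the eta subunit, moved by a similar fraction. CCT7 had 417, 429 and 421 CPM in si_NC and 403, 401 and 404 CPM in si_GRB2. CCT7 averaged 422 ± 6.13 and 403 ± 1.26 CPM (SD, n = 3 each), a log2 fold change of −0.069 (SE 0.025, adjusted p = 0.043). For CCT3 and CCT7 the si_GRB2 values lay close together and below every si_NC value.

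The other CCT subunits, which form the same ring, did not pass the test. Their log2 fold changes were 0.038 for CCT6A, 0.024 for TCP1, −0.0070 for CCT5, −0.029 for CCT2, −0.058 for CCT4 and −0.10 for CCT6B. Summed over the 9 genes, the class stood at 3631 ± 66.3 CPM in si_NC and 3524 ± 44.04 CPM in si_GRB2 (SD, n = 3 each). The CCT7 call was lost when si_NC replicate 2 or 3 or si_GRB2 replicate 1, 2 or 3 was left out (adjusted p 0.0612 to 0.122 in edgeR). With library totals in place of TMM factors CCT3 and CCT7 no longer passed, and in limma CCT3, CCT7 and CCT8 did not.

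DNAJA proteins are the cytosolic and mitochondrial DNAJ proteins closest to bacterial DnaJ. None of their 4 genes passed the edgeR test at an adjusted p under 0.05. DNAJA1, with 79.4 FPKM the most abundant DNAJ gene, had 256 ± 7.24 CPM in si_NC and 263 ± 1.98 CPM in si_GRB2 (SD, n = 3 each), and a log2 fold change of 0.041 (SE 0.028, adjusted p = 0.313). DNAJA2 had a log2 fold change of 0.049 (SE 0.033, adjusted p = 0.306). DNAJA3, the mitochondrial form, had its 3 si_GRB2 values above the si_NC values, with log2 fold change 0.058 (SE 0.029, adjusted p = 0.154). DNAJA4 stood under 1 CPM in every library and was lower in all 3 si_GRB2 libraries, with log2 fold change −0.63 (SE 0.28, adjusted p = 0.105).

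Of the 9 tested DNAJB genes, 6 rose (66.7%), 0 fell and 3 did neither, with a median log2 fold change of 0.13. Of all tested genes 15.2% rose and 15.5% fell. DNAJB9 (ERdj4), an ER cochaperone of BiP that is raised by XBP1, lies on the plus strand at chr7:108569867-108574850 and rose the most. DNAJB9 had 74.1, 72.9 and 66.9 CPM in si_NC and 89.8, 89.7 and 94.7 CPM in si_GRB2. Every si_GRB2 value was far above the si_NC values. From 71.3 ± 3.85 to 91.4 ± 2.89 CPM (SD, n = 3 each), DNAJB9 had a log2 fold change of 0.36 (SE 0.043, adjusted p = 8.55e-06). DNAJB12 encodes an ER membrane protein that sends misfolded proteins to degradation, and DNAJB6 a suppressor of protein aggregation. DNAJB12 had 98.6, 96.4 and 102 CPM in si_NC and 109.7, 112 and 114 CPM in si_GRB2. The DNAJB12 means of 99.02 ± 2.797 and 112 ± 2.405 CPM (SD, n = 3 each) gave a log2 fold change of 0.18 (SE 0.034, adjusted p = 8.48e-04). DNAJB6 also rose. DNAJB6 had 94.8, 102 and 93.8 CPM in si_NC and 106, 107 and 108 CPM in si_GRB2. DNAJB6 averaged 96.8 ± 4.34 and 107 ± 1.17 CPM (SD, n = 3 each), a log2 fold change of 0.14 (SE 0.037, adjusted p = 0.00691). Both had groups that did not overlap.

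DNAJB11 (ERdj3), a soluble ER cochaperone, rose less and had 185, 189 and 185 CPM in si_NC and 192, 202 and 200.2 CPM in si_GRB2. From 186 ± 2.33 to 198 ± 5.39 CPM (SD, n = 3 each), DNAJB11 had a log2 fold change of 0.086 (SE 0.030, adjusted p = 0.0367). DNAJB4, a cytosolic relative of DNAJB1 at a low level, had 6.49, 5.73 and 6.95 CPM in si_NC and 7.91, 7.06 and 8.89 CPM in si_GRB2. The DNAJB4 means of 6.39 ± 0.618 and 7.95 ± 0.913 CPM (SD, n = 3 each) gave a log2 fold change of 0.31 (SE 0.11, adjusted p = 0.0481). DNAJB2, a ubiquitin-binding form named after its values were seen, rose from 37.1 ± 0.708 CPM in si_NC to 40.6 ± 2.14 CPM in si_GRB2 (SD, n = 3 each), with log2 fold change 0.13 (SE 0.047, adjusted p = 0.0437). DNAJB1 (HSP40), the main inducible partner of HSPA1A, had 203, 207 and 204 CPM in si_NC and 203, 209.6 and 209 CPM in si_GRB2. The DNAJB1 groups overlapped, with log2 fold change 0.021 (SE 0.028, adjusted p = 0.638). DNAJB13 and DNAJB14 had log2 fold changes of −0.089 and −0.0055 and did not pass. The DNAJB11 call was lost when si_NC replicate 1, 2 or 3 or si_GRB2 replicate 2 or 3 was left out (adjusted p 0.0716 to 0.154 in edgeR). The DNAJB4 call was lost when si_NC replicate 1 or 2 or si_GRB2 replicate 1 or 3 was left out (adjusted p 0.0819 to 0.219 in edgeR). The DNAJB2 call was lost when si_NC replicate 1, 2 or 3 or si_GRB2 replicate 1 or 2 was left out (adjusted p 0.0527 to 0.228 in edgeR). DNAJB2 and DNAJB4 did not pass in DESeq2 with all 6 libraries, and DNAJB2, DNAJB4, DNAJB6 and DNAJB11 did not in limma.

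DNAJC proteins carry a J domain and otherwise differ widely, placing HSP70 at particular sites of the cell. Of 26 tested genes, 4 rose (15.4%), 6 fell (23.1%) and 16 did neither, beside 15.2% and 15.5% of all tested genes. The share that rose thus lay near the background. The median was 0.0052, and the class held the largest changes in both directions. Relative to all tested genes this median ran from −0.0168 to 0.0234 with 1 library left out, so that its sign was not stable. DNAJC13 (RME-8), an endosomal protein that works with HSC70 on clathrin and retromer coats, lies on the plus strand at chr3:132417502-132539032. DNAJC13 had 27.7, 26.3 and 29.02 CPM in si_NC and 18.001, 18.03 and 18.2 CPM in si_GRB2. Its si_GRB2 values were nearly equal and all far below the si_NC values. DNAJC13 averaged 27.7 ± 1.35 and 18.1 ± 0.115 CPM (SD, n = 3 each), a log2 fold change of −0.62 (SE 0.055, adjusted p = 3.60e-07). DNAJC22 on the plus strand at chr12:49346888-49357546 was the other member past the fold limit, at a low level. DNAJC22 had 2.78, 2.47 and 2.603 CPM in si_NC and 1.39, 1.24 and 1.501 CPM in si_GRB2. The 2 groups stayed apart. From 2.62 ± 0.155 to 1.38 ± 0.132 CPM (SD, n = 3 each), DNAJC22 had a log2 fold change of −0.93 (SE 0.18, adjusted p = 8.43e-04).

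DNAJC9, which links HSP70 to histones, lies on the minus strand at chr10:73183362-73247255 and was the most abundant DNAJC gene per length, at 39.0 FPKM. DNAJC9 had 171, 176 and 172 CPM in si_NC and 134, 134 and 138 CPM in si_GRB2. The DNAJC9 means of 173 ± 2.85 and 135 ± 2.21 CPM (SD, n = 3 each) gave a log2 fold change of −0.36 (SE 0.030, adjusted p = 1.80e-07). Its groups lay apart by many times their spread. DNAJC5, the cysteine string protein of secretory vesicles, had 188, 183 and 186 CPM in si_NC and 166, 167 and 156 CPM in si_GRB2. DNAJC5 averaged 186 ± 2.88 and 163 ± 5.74 CPM (SD, n = 3 each), a log2 fold change of −0.19 (SE 0.032, adjusted p = 2.80e-04). DNAJC3 (p58IPK), an ER cochaperone and inhibitor of PERK, had 111, 111 and 110.1 CPM in si_NC and 104, 103 and 104 CPM in si_GRB2. From 111 ± 0.6499 to 104 ± 0.312 CPM (SD, n = 3 each), DNAJC3 had a log2 fold change of −0.10 (SE 0.031, adjusted p = 0.0256). The small DNAJC3 shift exceeded the narrow spread in both groups. DNAJC17, a splicing-related protein named after its values were seen, fell from 42.3 ± 1.76 CPM in si_NC to 38.4 ± 0.853 CPM in si_GRB2 (SD, n = 3 each), with log2 fold change −0.14 (SE 0.045, adjusted p = 0.026). On the strand opposite DNAJC17, GCHFR held reads equal to 118% of those of DNAJC17 and had a log2 fold change of −0.49. ZFYVE19 and C15orf62, also on that strand, held 143% and 21.7%, with log2 fold changes of 0.10 and −0.074. The DNAJC3 call was lost when si_NC replicate 1 or 2 or si_GRB2 replicate 1 or 2 was left out (adjusted p 0.0524 to 0.0832 in edgeR). The DNAJC17 call was lost when si_NC replicate 1 or si_GRB2 replicate 2 or 3 was left out (adjusted p 0.0791 to 0.109 in edgeR). DNAJC3 and DNAJC17 also no longer passed with library totals in place of TMM factors, DNAJC17 did not in DESeq2, and DNAJC3, DNAJC5 and DNAJC17 did not in limma.

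Among the DNAJC genes that rose, DNAJC16 encodes an ER membrane protein. DNAJC16 had 14.1, 12.3 and 12.01 CPM in si_NC and 17.3, 16.5 and 17.7 CPM in si_GRB2. The DNAJC16 means of 12.8 ± 1.13 and 17.2 ± 0.573 CPM (SD, n = 3 each) gave a log2 fold change of 0.42 (SE 0.073, adjusted p = 3.47e-04). DNAJC18, with the largest rise of all members, rested on few reads. DNAJC18 had 1.89, 1.53 and 1.75 CPM in si_NC and 3.099, 2.15 and 2.37 CPM in si_GRB2. DNAJC18 averaged 1.72 ± 0.181 and 2.54 ± 0.498 CPM (SD, n = 3 each), a log2 fold change of 0.55 (SE 0.19, adjusted p = 0.0379). DNAJC30 encodes a mitochondrial inner membrane protein and was named after its values were seen. DNAJC30 had 45.7, 43.98 and 44.2 CPM in si_NC and 54.1, 52.4 and 50.9 CPM in si_GRB2. From 44.6 ± 0.9595 to 52.5 ± 1.62 CPM (SD, n = 3 each), DNAJC30 had a log2 fold change of 0.23 (SE 0.041, adjusted p = 4.30e-04). The groups of all 3 genes did not overlap. The DNAJC18 call was lost when si_NC replicate 2 or 3 or si_GRB2 replicate 1 or 3 was left out (adjusted p 0.0639 to 0.189 in edgeR). With all 6 libraries it was lost in DESeq2 and limma.

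DNAJC25 and the readthrough gene DNAJC25-GNG10 share their first exons on the same strand of chromosome 9, and they moved in opposite directions. DNAJC25, at chr9:111631334-111654351, had 19.5, 19.1 and 17.8 CPM in si_NC and 25.1, 26.6 and 26.6 CPM in si_GRB2. The DNAJC25 means of 18.8 ± 0.884 and 26.1 ± 0.861 CPM (SD, n = 3 each) gave a log2 fold change of 0.48 (SE 0.056, adjusted p = 7.91e-06). The readthrough row fell. DNAJC25-GNG10 had 30.3, 30.96 and 27.9 CPM in si_NC and 18.8, 20.5 and 20.4 CPM in si_GRB2. DNAJC25-GNG10 averaged 29.7 ± 1.603 and 19.9 ± 0.965 CPM (SD, n = 3 each), a log2 fold change of −0.58 (SE 0.057, adjusted p = 1.26e-06). In every library labelled si_GRB2 the DNAJC25 row was higher and the readthrough row lower than in every si_NC library. Their sum was 48.5 ± 2.44 CPM in si_NC and 46.0 ± 1.82 CPM in si_GRB2 (SD, n = 3 each), while the part of the sum on DNAJC25 went from 38.7% ± 0.501 to 56.7% ± 0.402. How reads of the shared exons were divided between the rows is not given in the sources used here, so each row is uncertain on its own. The exons of GNG10 lie within the readthrough gene and its separate row held 2 reads over all 6 libraries, so that reads of GNG10 itself and of the readthrough transcript cannot be told apart.

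The 16 DNAJC genes that did not pass had log2 fold changes between −0.084 and 0.21. They included DNAJC10 (ERdj5), the disulfide reductase of the ER, with 89.1 ± 3.96 CPM in si_NC and 84.6 ± 2.15 CPM in si_GRB2 (SD, n = 3 each), and a log2 fold change of −0.074 (SE 0.039, adjusted p = 0.181). DNAJC7, which bridges HSP70 and HSP90 and was the DNAJC gene with the highest CPM, had 261 ± 7.76 CPM in si_NC and 260.4 ± 3.29 CPM in si_GRB2 (SD, n = 3 each). DNAJC1 of the ER membrane, DNAJC2 of the ribosome, DNAJC8 of the spliceosome, DNAJC14 and the mitochondrial DNAJC15 had log2 fold changes of 0.036, 0.030, 0.0088, 0.0016 and −0.031. DNAJC6, the auxilin that strips clathrin coats, and DNAJC21, a factor of ribosome assembly, had all si_GRB2 values above the si_NC values without passing (log2 fold changes 0.092 and 0.087). The others were DNAJC4, DNAJC11, DNAJC12, DNAJC19, DNAJC24, DNAJC27 and DNAJC28. Of the remaining tested symbols, HSPE1-MOB4 had a log2 fold change of −0.075, HSPB2-C11orf52 of −0.013 and HSPBAP1 of 0.054, and none of these 3 passed the edgeR test at an adjusted p under 0.05.

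The members and partners were also grouped by place and function with lists that do not hold every gene of a place. The 8 members on the ER list held 5 that rose, HSPA5, HSPA13, HSP90B1, DNAJB9 and DNAJB11. Of the others DNAJC3 fell, and DNAJC1 and DNAJC10 did neither. This was 62.5% higher and 12.5% lower, beside 15.2% and 15.5% of all tested genes, with a median log2 fold change of 0.086. The ER list leaves out DNAJB12, DNAJB14, DNAJC14, DNAJC16, DNAJC18 and DNAJC25 of the ER membrane. With these 6, added after their values were seen, 9 of 14 rose, 1 fell and 4 did neither, with a median of 0.13. The calls of HSP90B1, DNAJB11 and DNAJC18 among these risers were lost with several of the libraries left out and in limma. The DNAJC25 row is uncertain on its own, and DNAJC14 is also counted on the list of vesicles and endosomes. Among 20 other genes of the ER chaperone network, 9 rose, 1 fell and 10 did neither, with a median of 0.12, which is 45% higher and 5% lower beside 15.2% and 15.5% of all tested genes. None of the 20 reached the size set for naming, so the following were chosen after their values were seen. XBP1, the transcription factor of the IRE1 branch, went from 498 ± 25.9 CPM in si_NC to 610.1 ± 8.16 CPM in si_GRB2 (SD, n = 3 each), with log2 fold change 0.29 (SE 0.032, adjusted p = 3.40e-06). ATF6, the membrane-bound ER stress factor, went from 50.5 ± 0.798 CPM in si_NC to 61.7 ± 2.63 CPM in si_GRB2 (SD, n = 3 each), with log2 fold change 0.29 (SE 0.042, adjusted p = 6.24e-05). CRELD2 showed the largest rise of the list, with log2 fold change 0.31 (SE 0.041, adjusted p = 3.39e-05).

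The other risers were HYOU1, the ER exchange factor of BiP, with 0.19, the disulfide isomerases P4HB, PDIA6 and PDIA3 with 0.16, 0.14 and 0.13, the lectin chaperone CALR with 0.14, and the translocon protein SEC62 with 0.17. PDIA4, another isomerase, fell with log2 fold change −0.089 (SE 0.030, adjusted p = 0.0339). DDIT3, ATF4 and HERPUD1, which rise when the unfolded protein response runs strongly, did not pass, at 0.10, −0.028 and −0.063.

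**Figure D3:**
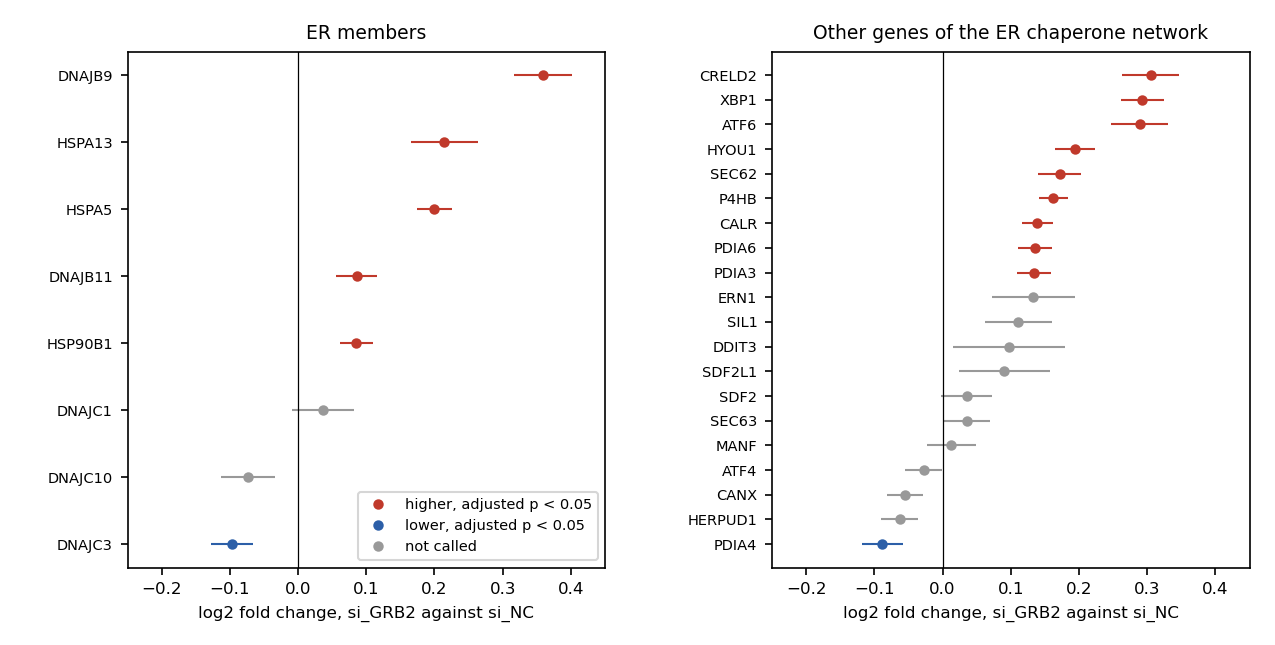
Log2 fold change (horizontal axis, positive when higher in si_GRB2) with its standard error for the 8 members on the ER list (left) and 20 other genes of the ER chaperone network (right). Of the 8 members 5 lie to the right of 0 and past the test, as do 9 of the 20 network genes, with DNAJB9, CRELD2, XBP1 and ATF6 the farthest.

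The 12 stress-inducible members held 4 that rose (HSPH1, HSPA4L, HSP90AA1 and DNAJB4), 0 that fell and 8 that did neither. The 8 included HSPA1A, HSPA1B, DNAJB1, HSPD1 and HSPE1. With 33.3% higher and 0% lower, the list stood beside 15.2% and 15.5% of all tested genes. Of the 7 members with the 3-unit heat shock element, 4 rose (HSP90AA1, HSP90AB1, HSPA8 and DNAJB6), 0 fell and 3 did neither (HSPA6, HSPD1 and DNAJA1), beside 15.2% higher and 15.5% lower of all tested genes. Of these 4 calls that of HSP90AA1 held whichever library was left out and under 10 other settings, those of HSP90AB1 and HSPA8 were lost with most libraries left out and under the replicate block, and that of DNAJB6 was lost in limma. Of the 17 tested members with the 2-unit form, these same 4 rose, 0 fell and 13 did neither. Both members with the ER stress element, HSPA5 and HSP90B1, rose, beside 15.2% of all tested genes. The HSPA5 call held whichever library was left out and under 10 other settings. That of HSP90B1 was lost with si_NC replicate 1 or 3 or si_GRB2 replicate 2 left out, and in limma. Of 32 tested regulators and partners of the heat shock system, 7 rose, 5 fell and 20 did neither, with a median log2 fold change of −0.0093. The shares of 21.9% higher and 15.6% lower stood beside 15.2% and 15.5% of all tested genes, so that the falls lay at the background. HSF1, the master regulator of the heat shock response, did not pass (0.057 (SE 0.043, adjusted p = 0.365)). Named after their values were seen, the HSP90 cochaperones CHORDC1, UNC45A and AHSA1 rose by 0.29, 0.23 and 0.12 on the log2 scale. Others of the HSP90 cochaperones on the list fell, CDC37, which brings kinases to HSP90, with log2 fold change −0.13 (SE 0.030, adjusted p = 0.00254), and SUGT1 with −0.15 (SE 0.039, adjusted p = 0.0071), while STIP1, FKBP4 and PTGES3 did not pass, at −0.037, −0.033 and 0.056. BAG3, an inducible HSP70 partner, fell with log2 fold change −0.16 (SE 0.037, adjusted p = 0.00313), as did the phosphatase PPP5C with −0.20 (SE 0.034, adjusted p = 2.91e-04). The other risers on the list were CDC37L1, BAG1, FKBP8 and ST13, with log2 fold changes of 0.25, 0.16, 0.15 and 0.13.

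Of the 8 mitochondrial members, 2 rose (HSPA9 and DNAJC30), 0 fell and 6 did neither, with 25% higher beside 15.2% of all tested genes. The 11 partners in the mitochondrial matrix held 1 riser and 5 fallers, or 9.09% and 45.5%, beside 15.2% and 15.5% of all tested genes. TRAP1, 1 of these fallers, is also counted among the fallers of the heat shock partners. The riser was GRPEL2, an exchange factor of HSPA9, with log2 fold change 0.27 (SE 0.046, adjusted p = 3.62e-04). The largest fall there was that of CLPX, the unfoldase of the ClpXP protease, with log2 fold change −0.27 (SE 0.046, adjusted p = 2.57e-04). Among the 5 nuclear and RNA-related members, 0 rose, DNAJC9 and DNAJC17 fell and 3 did neither. Among the 5 members of vesicles and endosomes, 0 rose, DNAJC5 and DNAJC13 fell and 3 did neither. In each of these small groups 40% fell, beside 15.5% of all tested genes. The 13 prefoldin genes and CCT cofactors held 2 that rose and 2 that fell. This was 15.4% each way, near the 15.2% and 15.5% of all tested genes. On the log2 scale PDCL3, a phosducin-like cofactor of CCT, rose by 0.34 and URI1 by 0.16. The log2 fold changes of the fallers PDRG1 and PFDN6 were −0.21 and −0.11. These genes, like the other partners here, were named after their values were seen.

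Levels per length spanned a wide range. Of the 83 members, 7 had a mean of at least 100 FPKM over the 6 libraries, led by HSPB1 at 445, HSP90AB1 at 338, HSPA8 at 322 and HSP90AA1 at 238 FPKM, and 19 stood under 1 FPKM. Those 4 lie in the cytosol. The most abundant ER and mitochondrial members were HSPA5 at 82.9 FPKM and HSPE1 at 140 FPKM. The 8 members too low to test were HSPA12B, HSPB2, HSPB3, HSPB6, HSPB9, DNAJB5, DNAJB7 and DNAJC5B, each with at most 39 reads over all libraries, while the least covered tested member held 91. In the edgeR fit without a filter on low counts their adjusted p lay between 0.384 and 0.988. HSPB6 was the 1 of them whose groups did not overlap, with 6 reads in each si_NC library and 3, 3 and 2 in those of si_GRB2. The HSPB2 gene overlaps HSPB2-C11orf52 on the same strand, whose row held 2814 reads against 5 for HSPB2, so that reads of HSPB2 and of the readthrough transcript cannot be told apart and its low count is uncertain.

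**Figure D4:**
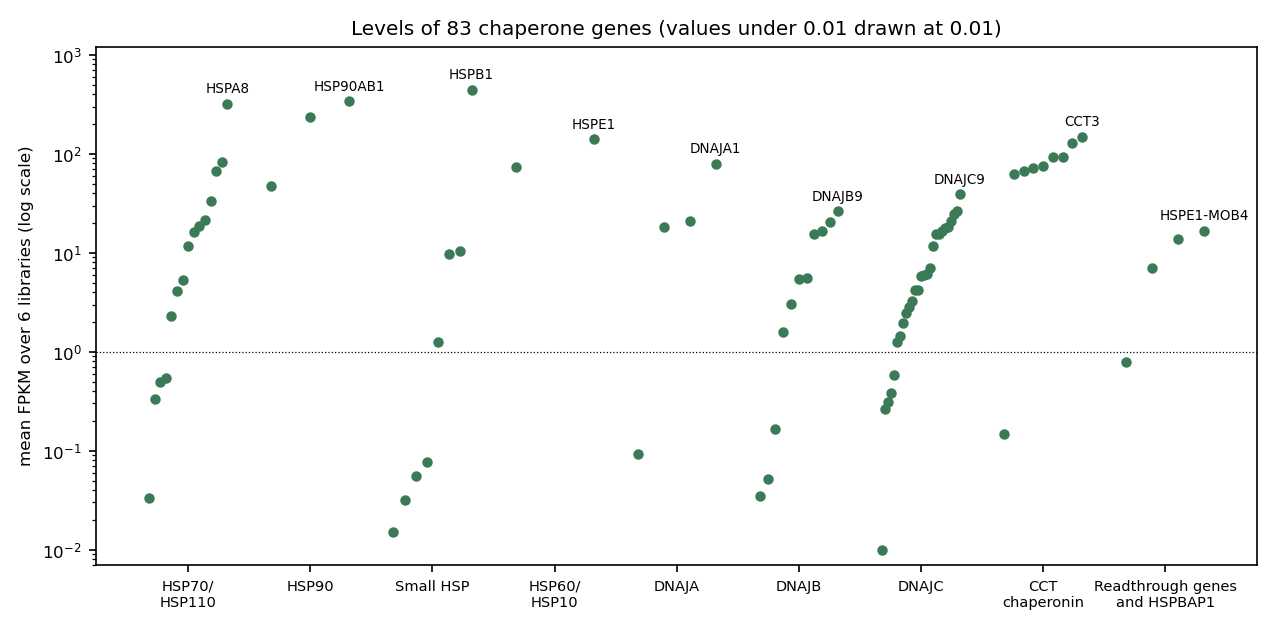
Mean level over the 6 libraries (FPKM, log scale on the vertical axis) of all 83 members by class, each point 1 gene, with the most abundant gene of each class named and a dotted line at 1 FPKM. HSPB1, HSP90AB1 and HSPA8 stand highest, and 8 of the 9 CCT genes lie close together between 62.6 and 149 FPKM.

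Of the 32 changed members, 21 kept their call whichever library was left out, 12 of them higher and 9 lower, and 15 of these (10 higher and 5 lower) also kept it under 10 other settings. Limma lost 17 of the 32 calls under both pseudocounts (adjusted p 0.0575 to 0.74), DESeq2 lost 4 (0.0787 to 0.11) and edgeR with the replicate block lost 6 (0.0612 to 0.139), the last HSPA8, HSP90AB1, DNAJB2, DNAJB11, DNAJC3 and CCT7. No changed member turned its direction under any of these settings.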

How the data were processed

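The members, the gene lists and the tests were chosen with earlier results of these data known. Per the study's methods, the authors trimmed reads with FASTX-Toolkit, used HISAT2 with GRCh38 and counted only reads that mapped to 1 place. The deposited values are each gene's read count, not normalized, and FPKM that the authors rounded. The counting tool, its annotation and its use of strand are not given in the sources used here, although the libraries are stranded, so that reads of overlapping genes cannot always be told apart.

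In R 4.3.3, edgeR 4.0.16 scaled the counts with TMM factors, kept 15801 genes by filterByExpr and compared 3 si_GRB2 with 3 si_NC libraries by its quasi-likelihood test without covariates, with Benjamini-Hochberg adjustment over all genes kept. A change was called at an adjusted p under 0.05, and a second limit asked for 1.5-fold and an adjusted p under 0.01. Members of 1 group are not replicates, so classes are given by counts and medians. FPKM served for levels between genes. No 2 libraries of a group agreed within sampling noise (chi-square per degree of freedom 2.05 to 4.56). In simulated counts for 15616 genes, the test called 42% of genes changed by 1.2-fold, 76% by 1.5-fold, 93.9% by 2-fold and 98% by 3-fold. Of its 154 calls, 0.649% were false. The simulation gave all genes the same spread (biological coefficient of variation 3.75%) and changed only 49 or 50 genes per fold. The data held 2396 genes called higher and 2442 called lower, so these shares cannot be carried over to the calls made here. Named are, in each class and direction, the 3 largest called changes at a mean of at least 1 CPM, a fixed list of well-known members, and partners called with an absolute log2 fold change of at least 0.4. Other names fall outside this rule. Some are marked where they appear, and others, such as TRAP1, HSPA6, DNAJA4, DNAJC6, DNAJC7 and DNAJC21, are not marked.

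Gene positions are from GENCODE 44 on GRCh38, which held 99.7% of identifiers and all 83 members. Promoter windows are RefSeq's on GRCh38.p14 and were scanned with Python 3.11.15, numpy 2.4.6 and pandas 2.3.3, and matplotlib 3.10.9 drew the figures. Alternatives were DESeq2 1.42.0 and its size factors, other filters, a block on replicate number, limma 3.58.1 on log2(FPKM + 1) or log2(FPKM + 0.1), glmTreat, each library left out, and 3 scalings added after seeing the data.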

Additional observations from a re-analysis of the deposited data

How the results depend on the processing

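Beside 20 members higher and 12 lower by edgeR, DESeq2 gave 17 and 11, its size factors in edgeR 20 and 12, no filter on low counts 16 and 11, a minimum of 10 reads in every library 16 and 12, and a fit without mitochondrially encoded genes 20 and 12. Of all genes in each fit, DESeq2 called 12.2% higher and 12.4% lower, and its size factors in edgeR 15.3% and 15.3%. Without a filter the shares were 7.71% and 8.16%, and with the minimum of 10 reads 15.6% and 17.3%. They were 15.2% and 15.5% without mitochondrially encoded genes. Limma gave 10 and 5 with both pseudocounts, and fewer genes of the whole table passed there as well. These were 10.3% higher and 6.38% lower with a pseudocount of 1, and 10.4% and 6.47% with 0.1. Library totals without TMM factors gave 28 and 8, or 26 and 8 without mitochondrially encoded genes too, after seeing the data. The shares of all tested genes were 21.8% and 11.0%, and 19.5% and 12.4%, in the same order. Leaving out 1 library gave 13 to 17 higher and 9 to 12 lower, the lowest without si_NC replicate 1 or 3 and without si_GRB2 replicate 2. In these fits 11.2% to 13.4% of all tested genes were higher and 12.2% to 14.5% lower. The 2 members past the fold limit became 0 with limma and a pseudocount of 1 or with glmTreat, 1 with a pseudocount of 0.1, 1 with either set of library totals, and 2 to 3 with a library left out; the cause was not tested.

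The replicate block gave 16 higher and 10 lower members, beside 15.1% and 15.3% of all tested genes. The deviations of same-numbered libraries correlated by 0.232, −0.095 and 0.08, so the numbers were not taken to pair libraries, and si_NC replicate 3 correlated best with si_GRB2 replicate 2 (0.228).

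Relative to the median of all genes, the median without a filter was −0.1274 for small HSP genes and 0.0087 for all members, where untested genes enter, and for CCT it was −0.0324 with limma and a pseudocount of 1. With a library left out these medians ran from 0.0381 to 0.0987 for HSP70, 0.0848 to 0.1576 for DNAJB, −0.0651 to −0.0233 for CCT, −0.0168 to 0.0234 for DNAJC and 0.0144 to 0.05 for all members. Of 720 values of 45 named members, 597 kept direction and call, 86 no longer passed, 15 newly passed and 22 turned sign, each of a member that did not pass. With limma at both pseudocounts and library totals with and without mitochondrial genes, HSPA4 had 0.0398, 0.0417, 0.0483 and 0.0309, HSPE1 0.0357, 0.0360, 0.0429 and 0.0256, CCT2 0.0144, 0.0146, 0.0208 and 0.0035, and CCT5 0.0361, 0.0365, 0.0433 and 0.0259. With a library left out the log2 fold changes ran from −0.0018 to 0.0440 for HSPA1A, −0.0193 to 0.0049 for HSPA4, −0.0318 to 0.0094 for HSPE1, −0.0175 to 0.0059 for CCT5 and −0.0003 to 0.0388 for TCP1. Groups of 3 limit precision most for members with few reads, such as DNAJC18 and DNAJC22.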
